A study of Mus musculus with 21 samples.

Results

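Liver gene expression was compared between mice killed 23 days and mice killed 9 days into the experiment, all given the microRNA-122 inhibitor SPC3372. The comparison rests on 6 of the 21 arrays of the series, chosen by their sample titles: the 3 treated arrays of day 23 and the 3 treated arrays of day 9 that carry the array set name p0617. Its question is how the liver of drug-treated mice differed between an early and a late day after the dose.

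MicroRNA-122 is made by hepatocytes in large amounts and lowers the level of messenger RNAs that carry a match to its seed in their 3' ends. SPC3372 is an LNA-antimiR, an oligonucleotide with locked nucleic acid sugars that base-pairs with the microRNA and holds it, so that target messenger RNAs can accumulate. The liver also runs a circadian clock, in which ARNTL and CLOCK switch on their own repressors and a set of output genes, and many metabolic genes follow that cycle.

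The mice were female NMRI, an outbred stock, and the series has 18 of them on 21 Affymetrix mouse arrays of total liver RNA. Treated mice received 25 mg per kg SPC3372 on day 2, and control mice received saline on the same day. Each of the 6 combinations of treatment and day of kill (3, 9 or 23) had 3 mice, which the design text calls biological replicates. RNA of the 3 treated mice killed on day 23 was put on arrays of p0617 and again of p0621, whereas the saline mice of day 23 were hybridised in p0621 and all mice of days 3 and 9 in p0617. The treated groups of days 9 and 23 differ in the day of kill and therefore in the time since the dose and in the age of the mice, which cannot be told apart. Neither the hour of kill nor the age is given in the sources used here.

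All 6 arrays carried the profile of liver. The 12 measured hepatocyte markers of the list were each above the median level of all genes, 5.87 on the log2 scale, and the log2 of their summed level lay between 16.70 and 16.74 at day 23 and between 16.67 and 16.70 at day 9. Markers of bile duct epithelium, pancreas, muscle and fat were below that median in every case (6, 6, 5 and 3 measured genes). Summed lymphocyte markers were higher at day 23 (9.59 to 9.78) than at day 9 (9.40 to 9.52), and summed neutrophil markers were lower (8.28 to 8.38 against 8.48 to 8.64), with no overlap in either case. Nor did the summed markers of fat (5.48 to 5.60 against 5.31 to 5.47) or muscle (6.45 to 6.58 against 6.59 to 6.75) overlap, although all of their genes were below the median level, and 20.8% of all single genes did not overlap either. In bulk tissue, fewer cells of a type and less RNA per cell cannot be told apart.

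The 2 groups also differed in a measure of RNA quality. The log2 ratio of the 3' to the 5' beta-actin control probe set was 1.04 ± 0.05 (SD, n = 3) at day 23 and 1.14 ± 0.02 at day 9, ranging from 0.994 to 1.09 and from 1.12 to 1.16. The day 23 arrays were therefore all below the day 9 arrays, while the second arrays of the same day 23 mice in p0621 averaged 1.15 ± 0.16. The same ratio of the Gapdh control probe sets ran the other way, -0.0040 ± 0.023 at day 23 and -0.064 ± 0.038 at day 9, and overlapped. The beta-actin ratio also differed between treated and saline mice, without overlap, at day 3 (means 1.03 and 0.80) and day 9 (1.14 and 0.93). At day 23 within p0621 the means were 1.15 and 1.16. Its part in the treated minus saline differences and in the saline comparison was not tested. With the beta-actin ratio as a covariate, 7 genes passed the test (Dbp, Dnajb14, Gdap10, Hsph1, P4ha1, Ppargc1b and Rai14), and the calls of the other genes named below were lost. The differences themselves were -3.06 with the covariate against -3.03 without it for Mt2, 1.49 against 1.85 for Arntl, -1.07 against -1.54 for Per3, 1.01 against 1.19 for Got1, -0.38 against -0.42 for Aldoa and -1.71 against -1.38 for Acot1. The part of RNA quality in the results was not tested further. Correlations over all probe sets were 0.992 to 0.995 within the day 23 group, 0.993 to 0.995 within the day 9 group and 0.989 to 0.994 between them.

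Of 18194 genes, 283 differed between day 23 and day 9 at an adjusted p under 0.05 (limma, Benjamini-Hochberg), which is 1.56% of the genes tested. Higher expression at day 23 was found for 108 (0.594%) and lower expression for 175 (0.962%), while 2756 genes had an unadjusted p under 0.05. The 3 arrays of one day lay entirely above those of the other day for all 283, as they did for 20.8% of all genes. The count depended on single arrays: it fell to 63 without day 9 replicate 3, to 75 without day 23 replicate 2, to 107 without day 23 replicate 3, to 121 without day 9 replicate 1 and to 187 without day 23 replicate 1.

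The largest increases were in Rsph4a, a protein of the radial spokes of motile cilia, by 1.99 ± 0.39 (log2 difference ± SE), Arntl, a core activator of the clock, by 1.85 ± 0.22, and Tubb2a, a beta-tubulin, by 1.63 ± 0.21. They were followed by Rai14, Hspa1b, Hsph1, Tfrc, Nfil3, Got1, Slc45a3, Ube2c and Manf, with differences from 1.5 down to 1.03. The largest decreases were in Dbp, a clock output factor, by -3.41 ± 0.39, Mt2, a metallothionein, by -3.03 ± 0.53, Vnn1, a pantetheinase, by -2.61 ± 0.62, and Rgs16, a regulator of G protein signalling, by -2.37 ± 0.54. Per3, Sipa1l2, Bmf, Junb, Acot1, Cpsf4l, Gdap10 and Ppargc1b followed, with differences from -1.54 to -1.27. Of these 24 genes, the calls of Arntl, Tubb2a, Rai14, Hsph1, Tfrc, Nfil3, Got1, Slc45a3, Dbp, Sipa1l2, Cpsf4l, Gdap10 and Ppargc1b were kept whichever array was left out.

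**Figure D1:**
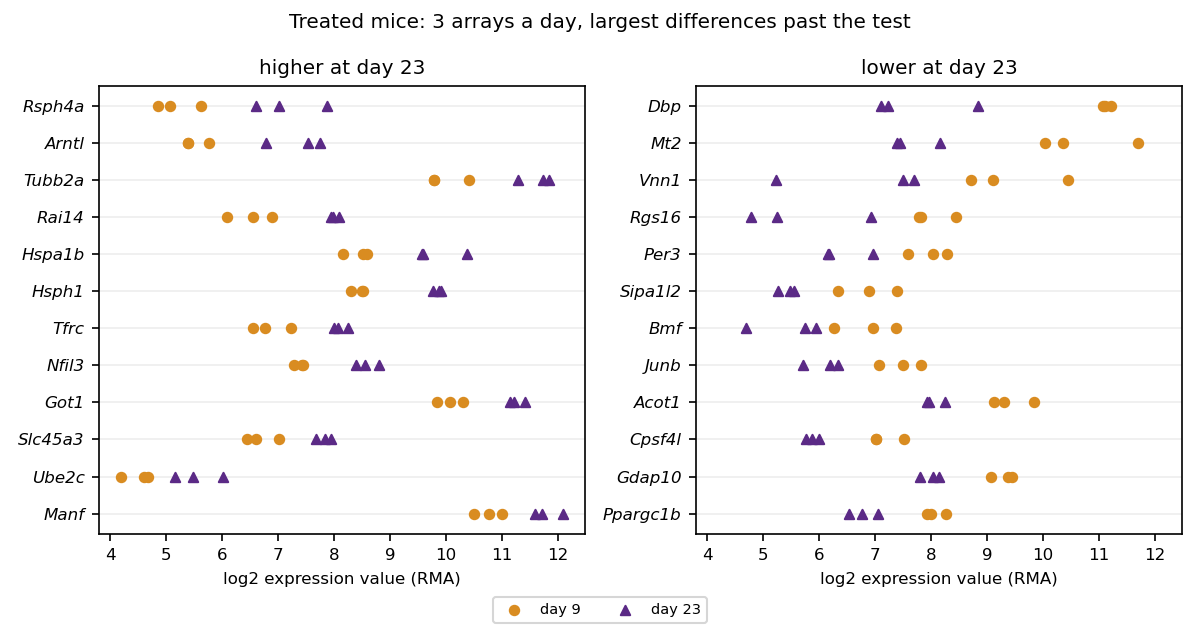
Log2 expression values (x axis) of the 12 largest increases and the 12 largest decreases past the test, with 1 point for each of the 3 arrays of day 9 (circles) and of day 23 (triangles). The 2 days do not overlap for any gene, and the day 23 arrays of Dbp and Rgs16 are spread more widely than their day 9 arrays.

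The same interval was examined in saline mice, whose arrays enter neither mean of the treated comparison. The saline day 9 arrays are among the 15 that set its residual variance. The saline arrays of the 2 days come from different array sets, so that day and set cannot be told apart in them. Without a term for array set, 444 genes (2.44%) passed the test between saline day 23 and saline day 9, 277 higher and 167 lower. With a term estimated from the 3 treated mice hybridised in both sets, 270 genes (1.48%) passed, 147 higher and 123 lower, but that estimate shares the day 23 arrays of the treated comparison. Of the 283 genes called in treated mice, 267 (94.3%) had the same sign in the saline comparison without the set term, beside 60.7% of all genes. The same sign was seen for 102 of the 108 higher and 165 of the 175 lower genes. In saline mice 92 of the 283 (32.5%) also passed the test in the same direction, and 0 passed in the opposite direction. The median size of the difference was 0.60 in treated mice, against 0.37 for the saline difference of these genes counted in the treated direction, and the treated value is raised by the choice of genes on it.

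The change of the drug effect from day 9 to day 23, meaning treated minus saline at day 23 within p0621 less treated minus saline at day 9 within p0617, tests whether treated and saline mice differed in this interval. It passed for 1 gene (0.0055%), Ranbp3l, at 1.21 ± 0.18 (adjusted p = 0.0496, limma), and 1582 genes had an unadjusted p under 0.05. None of the 283 genes passed it, and 82 of them were at an unadjusted p under 0.05. This contrast and the treated minus saline difference at day 9 share the day 9 arrays with the treated comparison. The contrast also shares its treated mice of day 23, hybridised again in p0621. Values of both are therefore given side by side only.

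**Figure D2:**
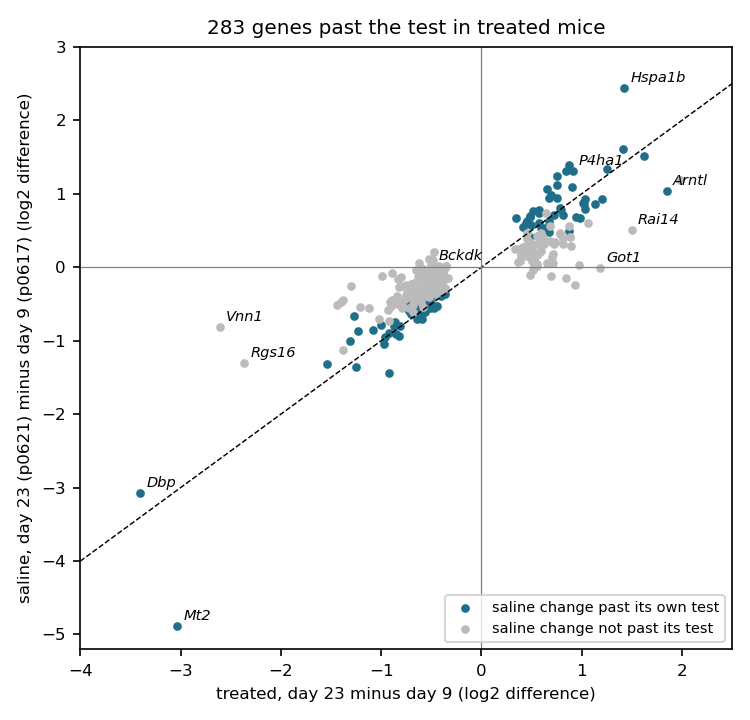
Log2 difference between day 23 and day 9 in treated mice (x axis) and in saline mice across the 2 array sets (y axis) for the 283 genes past the test in treated mice, with the line of equal differences dashed. Dbp, Mt2 and Arntl lie far from 0 on both axes, whereas Got1 lies at 1.19 on the treated axis and -0.01 on the saline axis.

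A list of microRNA-122 targets was examined next, its members named in other studies or measured as targets by this one, so that it is not independent of these data. Of the 24 measured genes of the target list, 3 fell (Aldoa, Bckdk and Ndrg3) and 1 rose (P4ha1) between day 9 and day 23, beside 0.962% lower and 0.594% higher over all genes. The median difference was -0.11, beside -0.02 over all genes. The remaining 20 did not pass the test. The median was between -0.14 and -0.03 with 1 array left out, the latter without day 23 replicate 3, and the number of decreases was then between 0 and 2.

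Aldoa, the aldolase of glycolysis that is typical of muscle and kept low in liver, was at 9.87, 10.02 and 9.89 in the 3 treated mice of day 9 and at 9.48, 9.56 and 9.49 in those of day 23. The 2 groups were clearly apart, and both lay above the saline mice, which were at 9.01 to 9.23 on day 9 and 9.11 to 9.18 on day 23. The difference was -0.42 ± 0.08 (adjusted p = 0.0204, limma), a 1.34-fold decrease. In saline mice the difference was -0.00, and the treated minus saline difference was 0.82 at day 3, 0.77 at day 9 and 0.34 at day 23. The probe sets of Aldoa may also read related sequences, and 5 of 5 were lower at day 23, by 0.24 to 0.46.

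Bckdk, the kinase that switches off the breakdown of branched-chain ketoacids, was at 7.67, 7.80 and 7.90 at day 9 and at 7.31, 7.50 and 7.09 at day 23. The groups did not overlap, although the day 23 mice were the more variable. It fell by 0.49 ± 0.11 (adjusted p = 0.0332), with 0.02 in saline mice, and treated mice exceeded saline mice by 1.15, 1.06 and 0.54 at days 3, 9 and 23. A dimmer probe set of Bckdk gave -0.25 and did not pass the test. Ndrg3, a member of the NDRG family, was at 7.27, 7.76 and 7.55 and then at 7.04, 7.01 and 6.78. It fell by 0.58 ± 0.14 (adjusted p = 0.0495), against -0.08 in saline mice, and was 0.87, 0.77 and 0.38 above saline mice at the 3 days.

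These 3 calls were close to the threshold. The call of Aldoa was kept only without day 9 replicate 1 (adjusted p = 0.0526 to 0.0689 without any other array), that of Bckdk only without day 23 replicate 2 (0.0504 to 0.142) and that of Ndrg3 only without day 9 replicate 1 (0.0764 to 0.165). The difference without 1 array was from -0.45 to -0.37 for Aldoa, from -0.59 to -0.39 for Bckdk and from -0.71 to -0.47 for Ndrg3. With the p0621 arrays of the same day 23 mice the differences were -0.44, -0.50 and -0.47, and the adjusted p of Ndrg3 was 0.0685. The change of the drug effect was -0.44 ± 0.12 for Aldoa, -0.52 ± 0.17 for Bckdk and -0.39 ± 0.21 for Ndrg3, none of them past its test (adjusted p = 0.347, 0.399 and 0.619).

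P4ha1, a catalytic subunit of collagen prolyl hydroxylase, moved the other way. It was at 5.64, 5.94 and 5.92 at day 9 and at 6.77, 6.74 and 6.73 at day 23, a rise of 0.91 ± 0.11 (adjusted p = 0.00117) that was kept without any 1 array. Saline mice rose too, from 5.49 to 5.72 at day 9 to 6.68 to 7.32 at day 23, by 1.31 (adjusted p = 3.6e-04), and treated and saline mice differed by -0.12, 0.20 and -0.20 at days 3, 9 and 23.

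The other targets described here did not pass the test. Hjv, the hemojuvelin coreceptor of hepcidin control, was at 9.81 to 9.99 at day 9 and 9.31 to 9.77 at day 23 (-0.33 ± 0.14, adjusted p = 0.246), and exceeded saline mice by 1.20, 0.66 and 0.57 at the 3 days. Ccng1, cyclin G1, was at 8.73 to 8.81 and 8.46 to 8.99 (-0.07 ± 0.12), overlapping, and stood 0.97, 0.52 and 0.50 above saline mice. Cd320, a receptor for transcobalamin, differed by -0.19, Gys1, the muscle form of glycogen synthase, by 0.05 and Slc7a1, a carrier of cationic amino acids, by 0.28. Tmed3, a cargo protein of the secretory pathway, was at 8.81 to 9.13 and 8.80 to 9.34 in treated mice (0.08 ± 0.17), while saline mice moved from 8.03 to 8.45 at day 9 to 9.07 to 9.54 at day 23 (1.01, adjusted p = 0.00263). Its treated minus saline difference went from 0.68 to -0.28, a change of -0.97 ± 0.23 that did not pass its test (adjusted p = 0.313). Meg3, an imprinted long noncoding RNA that is not in the target list, differed by 0.00 ± 0.31 and stood 1.24 and 1.45 above saline mice at days 9 and 23.

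**Figure D3:**
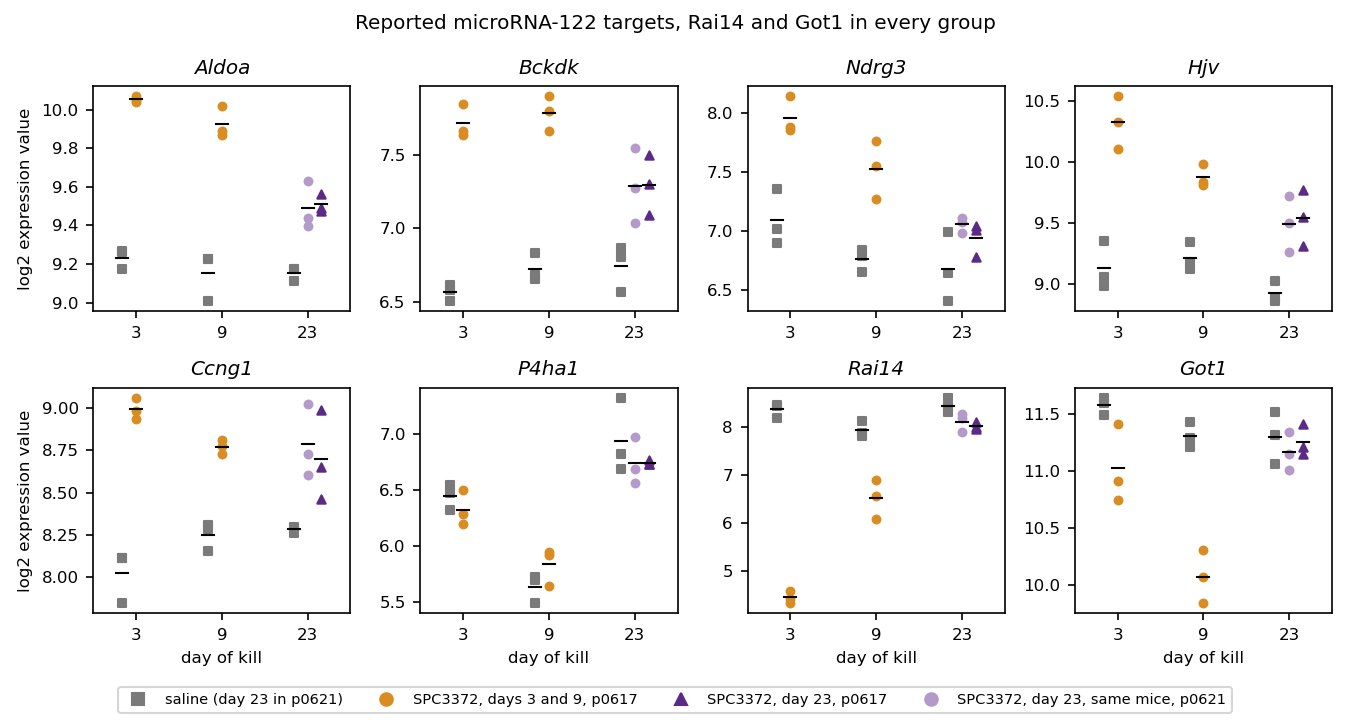
Log2 expression values (y axis) of 8 genes by day of kill in saline mice (squares), treated mice of days 3 and 9 (circles) and treated mice of day 23 on p0617 (triangles) and on p0621 (pale circles), with 1 point per array and a line at each mean of 3. Treated mice lie above saline mice for Aldoa, Bckdk and Hjv on all 3 days, and Rai14 and Got1 lie below them most clearly on days 3 and 9.

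Several of the larger differences belonged to genes that stood away from saline mice at day 9. Rai14, an actin-binding ankyrin repeat protein, was at 6.89, 6.08 and 6.56 at day 9 and at 7.98, 7.94 and 8.10 at day 23. It rose by 1.5 ± 0.16 (adjusted p = 0.00117), and by 1.29 to 1.69 without 1 array. Saline mice were at 7.81 to 8.11 at day 9 and 8.31 to 8.59 at day 23, so treated mice were lower than saline mice by 3.90, 1.42 and 0.33 at days 3, 9 and 23. The other probe sets of Rai14 gave 0.95, 0.76 and 0.15.

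Got1, the cytosolic aspartate aminotransferase, was at 10.31, 10.07 and 9.85 at day 9 and at 11.15, 11.21 and 11.41 at day 23. It rose by 1.19 ± 0.15 (adjusted p = 0.00192), while saline mice, at 11.21 to 11.43 and 11.06 to 11.52, differed by -0.01. The low values were therefore those of the treated mice of day 9, which lay 1.24 below saline mice, beside 0.56 at day 3 and 0.13 at day 23. Gdap10 went the other way, from 9.37, 9.07 and 9.46 to 8.04, 7.79 and 8.14, a decrease of 1.30 ± 0.17 (adjusted p = 0.00192), with -0.25 in saline mice. It stood 1.22 above saline mice at day 9 and 0.02 below them at day 23.

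Sipa1l2, a GTPase-activating protein for RAP proteins, was at 6.90, 6.34 and 7.39 and then at 5.49, 5.55 and 5.27, which was a decrease of 1.44 ± 0.19 (adjusted p = 0.00192). Saline mice were at 5.59 to 5.86 and 5.13 to 5.31, and treated mice stood 1.14 above them at day 9 and 0.28 at day 23. The change of the drug effect was 1.08 ± 0.23 for Rai14, 1.11 ± 0.22 for Got1, -1.24 ± 0.24 for Gdap10 and -0.86 ± 0.26 for Sipa1l2, none past its test (adjusted p = 0.251, 0.233, 0.233 and 0.391). Ranbp3l, the only gene that passed that test, was at 5.21, 5.29 and 5.21 at day 9 and at 5.69, 5.37 and 5.76 at day 23 in treated mice, a difference of 0.37 ± 0.11 that did not pass (adjusted p = 0.122). Its saline mice moved from 6.38 to 6.76 at day 9 to 5.03 to 5.50 at day 23. The treated mice of day 23 were at 4.97 to 5.35 on p0621, so the sign of the treated difference depended on the array set, and without 1 of the 12 arrays the test was passed by between 0 and 4 genes.

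Genes of the circadian clock made up some of the largest differences. Of 14 measured core clock genes, 2 rose (Arntl and Clock) and 1 fell (Per3), beside 0.594% higher and 0.962% lower over all genes. The median difference was -0.31, over members that went both ways. Of 11 measured clock output genes, 1 rose (Nfil3) and 4 fell (Dbp, Tef, Wee1 and Usp2, the last named after its value was seen), with a median of -0.25. The saline difference had the same sign for each of these 8 genes.

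Arntl, which encodes the activator BMAL1, was at 5.39, 5.76 and 5.39 at day 9 and at 6.79, 7.76 and 7.54 at day 23. It was 3.60-fold higher at day 23 (1.85 ± 0.22, adjusted p = 0.00118), while a dimmer probe set of Arntl gave 0.28 and did not pass. Saline mice were at 6.31 to 7.12 and then 7.71 to 7.91, a rise of 1.04 (adjusted p = 0.00405), so that treated mice lay 1.25 below saline mice at day 9 and 0.55 below at day 23. Clock, the partner of ARNTL, was at 7.08 to 7.14 and then 7.64 to 7.80 (0.58 ± 0.12, adjusted p = 0.0249). The call of Clock was lost without any 1 of the 6 arrays (adjusted p = 0.0511 to 0.0969).

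The 2 genes with the smallest adjusted p among the clock genes that fell encode PAR bZIP factors. Dbp, which activates genes with a D-box, was at 11.08, 11.22 and 11.10 at day 9 and at 8.84, 7.24 and 7.11 at day 23. It was 10.6-fold lower (-3.41 ± 0.39, adjusted p = 0.00117), and day 23 replicate 1 was the highest of its group on both array sets (8.82, 7.14 and 7.26 on p0621). Saline mice were at 9.76 to 10.96 and 6.95 to 7.52, a difference of -3.07 (adjusted p = 5.4e-04). Tef fell from 9.65, 9.61 and 9.60 to 8.83, 8.57 and 8.46 (-1.0 ± 0.12, adjusted p = 0.00117), and by 0.79 in saline mice.

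Nfil3 encodes a repressor that binds the same D-boxes as DBP and TEF. It rose from 7.29, 7.43 and 7.44 to 8.40, 8.81 and 8.56 (1.20 ± 0.13, adjusted p = 0.00117) and by 0.93 in saline mice. Per3, a period gene, fell from 8.29, 8.04 and 7.58 to 6.96, 6.17 and 6.16 (-1.54 ± 0.29, adjusted p = 0.0154) and by 1.32 in saline mice. Its call was lost without day 23 replicate 2 or 3 or day 9 replicate 1 (adjusted p = 0.0675, 0.0718 and 0.0702). Wee1, a kinase that restrains entry into mitosis, fell from 7.68, 7.86 and 7.88 to 7.01, 6.74 and 7.13 (-0.85 ± 0.15, adjusted p = 0.0106), a call lost without day 23 replicate 2 or day 9 replicate 3 (0.0564 and 0.0587).

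Other clock genes missed the threshold. Cry2, a repressor of the loop, was at 7.54 to 7.71 and 6.86 to 7.28 (-0.48 ± 0.12, adjusted p = 0.0541). Cry1 differed by 0.88 and Nr1d1, a nuclear receptor that represses Arntl, by -1.10, both without overlap between the days and named after their values were seen. The days did not overlap for 20.8% of all genes either. The treated minus saline difference at day 9 was -1.25 for Arntl, 0.85 for Dbp, 0.32 for Tef and 0.65 for Wee1, and at day 3 it was -0.01, 0.38, 0.03 and 0.03.

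**Figure D4:**
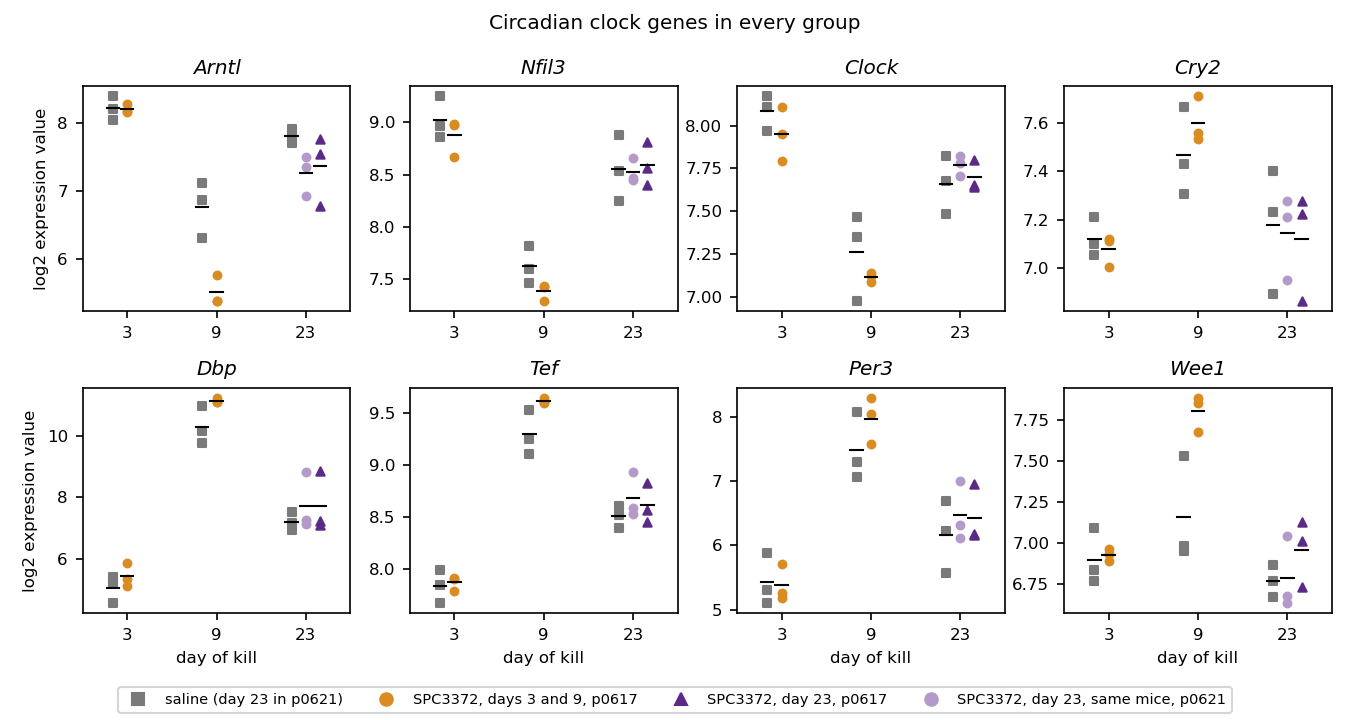
Log2 expression values (y axis) of 8 clock genes by day of kill, with the same symbols for saline mice, treated mice and the 2 array sets as in the plot of target levels. Arntl, Nfil3 and Clock are lowest on day 9 and Dbp, Tef and Per3 highest on day 9, in treated and saline mice alike.

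Stretches of 3 promoters are shown as examples of the 3 clock motifs, and were chosen after the values of their genes and their matches were seen. They were taken from RefSeq promoters of mouse build GRCm38.p6, and the 250 bases before each listed start were searched on both strands for the E-box CACGTG (6.02% of 32851 promoters), the ROR element TAGGTCA (2.2%) and the D-box, written TTACGTAA, TTATGTAA or TTACATAA (0.931%). Nfil3 (chr13:52981040-52981091, minus strand) held a ROR element, read here from its other strand, which REV-ERB proteins and ROR receptors bind. Per3 (chr4:151044776-151044910, minus strand) held a pair of D-boxes, and Tef (chr15:81802506-81802591, plus strand) an E-box, the motif of ARNTL and CLOCK. Capitals mark the matches.
Nfil3: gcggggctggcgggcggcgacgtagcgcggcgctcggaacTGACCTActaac
Per3: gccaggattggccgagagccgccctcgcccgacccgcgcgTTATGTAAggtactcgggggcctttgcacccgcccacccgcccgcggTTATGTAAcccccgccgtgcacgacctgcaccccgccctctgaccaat
Tef: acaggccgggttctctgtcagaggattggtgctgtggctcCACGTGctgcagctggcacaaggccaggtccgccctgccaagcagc
A match is a description of these letters and not a measured binding site. The searched windows of Arntl, Dbp, Clock and Usp2 held none of the 3 motifs. In the clock lists, E-boxes were also found for Cry1, Ciart, Per1 and Bhlhe41, with differences of 0.88, -0.68, -0.57 and -0.25, none past the test. In the list of heat shock and immediate early genes described below, Dusp1 and Hsph1 held an E-box. Whether the motif goes with a direction was not tested.

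Heat shock proteins refold damaged proteins, and immediate early genes answer signals within minutes. Of 18 measured genes in a list of both kinds, 3 rose (Hsph1, Hspa1b and Dnajb1) and 1 fell (Junb), beside 0.594% higher and 0.962% lower over all genes. The median of the list was -0.09. Hsph1, a chaperone of the HSP110 family, was at 8.31, 8.52 and 8.49 at day 9 and at 9.87, 9.78 and 9.92 at day 23. It was 2.66-fold higher (1.41 ± 0.17, adjusted p = 0.00117), and saline mice rose by 1.61 (adjusted p = 3.6e-04). Dnajb1, an HSP40 cochaperone, rose from 8.70 to 8.93 to 9.48 to 9.82 (0.87 ± 0.15, adjusted p = 0.0122), and by 1.39 in saline mice. Its call was lost without day 23 replicate 3 or day 9 replicate 3 (adjusted p = 0.0545 and 0.0674).

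Hspa1b, an inducible HSP70, was at 8.51, 8.16 and 8.59 and then at 10.38, 9.57 and 9.59, a rise of 1.43 ± 0.33 (adjusted p = 0.0434). That call was lost without any 1 array (adjusted p = 0.0739 to 0.121), while the saline rise was 2.44 (adjusted p = 0.00156). Hspa1b has a near-identical copy, Hspa1a, so its probe sets may read both genes. The promoter of Hsph1 is shown because its gene gave the smallest adjusted p of the list. It held a match to the heat shock unit TTCNNGAA (searched with GAANNTTC, 12.8% of promoters hold either) 33 bases before the start. The stretch lies at chr5:149636337-149636409, minus strand, with the match in capitals. Other listed genes with a match were Hspa1a, Hspa1b, Hspb1 and Jun, of which only Hspa1b was called. Dnajb1, which rose, and Junb, which fell, held none.
Hsph1: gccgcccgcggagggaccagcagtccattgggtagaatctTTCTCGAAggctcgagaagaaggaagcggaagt

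Junb, an immediate early transcription factor, was at 7.50, 7.82 and 7.08 at day 9 and at 6.34, 6.19 and 5.72 at day 23 (-1.38 ± 0.30, adjusted p = 0.0329). Its call was kept only without day 23 replicate 1 (adjusted p = 0.0584 to 0.122 without another array). Saline mice differed by -0.44. Mt2, a metallothionein induced by zinc and glucocorticoids, was at 10.03, 10.36 and 11.70 and then at 7.39, 8.16 and 7.45. It was 8.18-fold lower (-3.03 ± 0.53, adjusted p = 0.0112), with a call lost without day 23 replicate 3 or day 9 replicate 3 (adjusted p = 0.05 and 0.0622). Saline mice fell from 11.42 to 12.12 at day 9 to 6.26 to 7.30 at day 23 (-4.88, adjusted p = 3.6e-04). Of 28 measured acute phase genes 2 fell, Mt2 and Il1rn, which encodes the interleukin-1 receptor antagonist (-0.56 ± 0.13, adjusted p = 0.0399, kept only without day 9 replicate 1, 0.0594 to 0.12 otherwise). The median of that list was 0.02 and 0 of its genes rose, beside 0.962% lower and 0.594% higher over all genes. Il1rn differed by -0.55 in saline mice.

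Fatty acid oxidation in liver is driven by PPARA during fasting. Of 25 measured genes, 5 fell (Hadhb, Acot1, Acadm, Eci1 and Vnn1) and 0 rose, beside 0.962% lower and 0.594% higher over all genes. The median difference was -0.34, and 23 of the 25 had a negative difference, beside 9749 of 18194 over all genes. The median was -0.15 in saline mice. Without 1 array the median was between -0.37 and -0.27, but the number of decreases was between 0, without day 23 replicate 2 or day 9 replicate 3, and 4.

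Hadhb, the thiolase subunit of the mitochondrial trifunctional protein, was at 12.03, 11.97 and 12.12 and then at 11.66, 11.53 and 11.66. It fell by 0.42 ± 0.08 (adjusted p = 0.013), with -0.18 in saline mice, and lost its call without day 23 replicate 2 or day 9 replicate 3 (adjusted p = 0.063 and 0.0733). Acadm, the medium-chain acyl-CoA dehydrogenase, fell from 12.52 to 12.56 to 12.05 to 12.26 (-0.39 ± 0.08, adjusted p = 0.0322). Eci1, which isomerises double bonds of unsaturated acyl-CoAs, fell from 10.69 to 10.91 to 10.09 to 10.51 (-0.49 ± 0.11, adjusted p = 0.034). Both calls depended on all but 1 array, with an adjusted p of up to 0.114 for Acadm and 0.147 for Eci1 without day 9 replicate 3.

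Acot1, a cytosolic acyl-CoA thioesterase, was at 9.12, 9.31 and 9.84 at day 9 and at 8.24, 7.96 and 7.93 at day 23 (-1.38 ± 0.29, adjusted p = 0.0287), with -1.12 in saline mice. Vnn1, which releases pantothenate from pantetheine, was at 9.12, 8.71 and 10.44 and then at 7.70, 5.23 and 7.50 (-2.61 ± 0.62, adjusted p = 0.0494). Saline mice were at 8.78 to 9.72 and 7.88 to 8.70, a difference of -0.81. The adjusted p reached 0.131 for Acot1 and 0.184 for Vnn1 without day 9 replicate 3, and each call was also lost without day 23 replicate 2 or 3 or day 9 replicate 2, for Vnn1 also without day 9 replicate 1 (0.0573 to 0.139). Cyp4a14, a fatty acid omega-hydroxylase of the list that is named after its value was seen, had the largest difference of the 25 (-3.12) and just missed the threshold (adjusted p = 0.0523). Ppargc1b, a coactivator of mitochondrial genes that is not in the list, fell from 7.99, 7.93 and 8.26 to 6.54, 6.77 and 7.05 (-1.27 ± 0.15, adjusted p = 0.00117), and by 0.66 in saline mice.

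Lipid synthesis genes had positive differences that mostly did not pass the test. Of 20 measured cholesterol synthesis genes, 0 passed and 8 were at an unadjusted p under 0.05, beside 2756 of 18194 over all genes. Higher values at day 23 were seen for 19, beside 8445 over all genes, with a median of 0.63 against 0.14 in saline mice. This median rested on day 9 replicate 3, the lowest array for Ebp, a sterol isomerase (11.61, 11.85 and 11.29 at day 9, then 11.90, 12.07 and 11.96) among others: without it the median was 0.06. Of 24 measured genes of fatty acid and triglyceride synthesis, 1 rose, beside 0.594% of all genes. This was Fads1, the delta-5 desaturase, which went from 11.74, 11.66 and 11.32 to 12.10, 12.06 and 12.08 (0.51 ± 0.12, adjusted p = 0.0454). Its call was lost without any 1 array (adjusted p = 0.0525 to 0.165). Pnpla3, a lipase-like protein that responds to feeding, was at 5.66 to 5.90 and 7.54 to 8.09 (2.10 ± 0.51) and just missed the threshold (adjusted p = 0.0544). Acly, which makes cytosolic acetyl-CoA, differed by 1.17 ± 0.30 (adjusted p = 0.069).

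**Figure D5:**
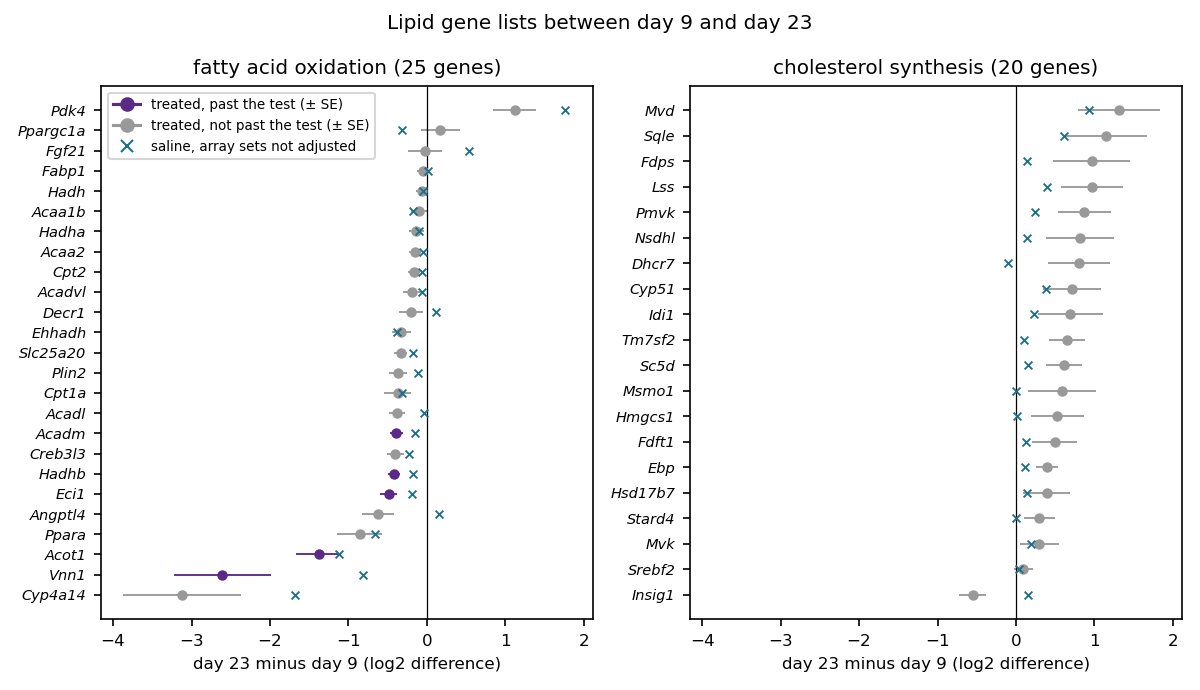
Log2 difference between day 23 and day 9 (x axis) for each measured gene of the fatty acid oxidation and cholesterol synthesis lists in treated mice (circles with SE) and in saline mice across the 2 array sets (crosses). The 5 genes of fatty acid oxidation past the test all lie below 0, and 19 of 20 cholesterol synthesis genes lie above 0 with wide errors.

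The sterol exporters Abcg5 and Abcg8, which form 1 heterodimer in the bile canaliculus, fell together and were the only 2 calls among 14 measured sterol and bile transporters (median -0.10). Over all genes, 0.962% were called lower. Abcg5 was at 10.42, 10.24 and 10.60 at day 9 and at 9.93, 9.62 and 9.60 at day 23 (-0.70 ± 0.11, adjusted p = 0.00621). Abcg8 was at 9.61, 9.27 and 9.70 and then at 8.93, 8.58 and 8.56 (-0.83 ± 0.12, adjusted p = 0.00485). Neither pair of groups overlapped, and both calls were kept without any 1 array. In saline mice the differences were -0.34 and -0.44, and treated mice stood 0.65 and 0.59 above saline mice at day 9 and 0.26 and 0.20 above them at day 23. The 2 genes are neighbours that share a promoter region, so they are not independent.

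Single members of other metabolic lists also passed, beside 1.56% of all genes. Besides Got1, Gys2, the liver glycogen synthase, was the other call among 16 genes of gluconeogenesis and glycogen, falling from 10.01, 9.90 and 10.13 to 9.49, 9.28 and 9.30 (-0.66 ± 0.11, adjusted p = 0.00947). Its call was lost without day 23 replicate 2 or day 9 replicate 3 (adjusted p = 0.0507 and 0.0583). Tfrc, the transferrin receptor, was the only call among 15 iron genes and rose from 7.24, 6.76 and 6.54 to 8.06, 8.0 and 8.25 (1.26 ± 0.14, adjusted p = 0.00117), and by 1.34 in saline mice. The other probe sets of Tfrc, all dimmer, gave 0.44, 0.09, 0.08, -0.06 and -0.09, none past the test. Rdh9, a retinol dehydrogenase, fell from 11.81, 11.97 and 11.98 to 11.41, 10.83 and 11.12 (-0.80 ± 0.15, adjusted p = 0.0167), the only call among 14 retinoid genes. It remained 1.07 above saline mice at day 23, beside 1.36 at day 9, and lost its call without day 23 replicate 2 or 3 or day 9 replicate 3 (adjusted p = 0.0585 to 0.0781). Also called were Cyp2c55 (0.82) among 21 drug-type cytochromes P450, Nat2 (-0.47) among 22 phase 2 conjugation enzymes and Axin2 (-0.69) among 10 pericentral zone markers. Each of these calls was lost without day 23 replicate 2 or day 9 replicate 3, and without other single arrays.

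In the list of folding and stress genes of the endoplasmic reticulum, 1 of 24 rose and 1 fell, beside 0.594% higher and 0.962% lower over all genes. The median was 0.23, and 0.22 in saline mice. Trib3, a pseudokinase induced by amino acid and folding stress, fell from 7.29, 7.40 and 7.08 to 5.98, 5.96 and 6.13 (-1.23 ± 0.16, adjusted p = 0.00192), a call kept without any 1 array. Manf, a secreted factor of the folding response, rose from 10.77, 11.00 and 10.51 to 11.59, 12.09 and 11.71 (1.03 ± 0.23, adjusted p = 0.0345). Its call was kept only without day 9 replicate 2 (adjusted p = 0.0523 to 0.147 without another array). In saline mice Trib3 differed by -0.87 and Manf by 0.93.

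Of 29 cell cycle and 18 p53 response genes, 2 passed in each list, beside 1.56% of all genes. Among the 29 cell cycle genes, Mcm2, a subunit of the replicative helicase, rose (0.42 ± 0.10, adjusted p = 0.0493) and Cdt1, which loads that helicase, fell (-0.58 ± 0.12, adjusted p = 0.0313). Of the 29, 24 had a positive difference, beside 8445 of 18194 over all genes, and the median was 0.27. In saline mice the median of the list was 0.15, or 0.28 with the set term. Only 10 of the 29 were above the median level of all genes, and their median difference in treated mice was 0.10. Mki67, the proliferation marker, was at 4.69, 4.77 and 5.34 and then at 6.13, 6.71 and 5.62 (1.22 ± 0.32, adjusted p = 0.0749). Among the 18 genes of the p53 response, which halts dividing cells after damage, Zmat3 rose (0.71 ± 0.14, adjusted p = 0.0249) and Gadd45a fell (-1.25 ± 0.27, adjusted p = 0.0323). In saline mice Mcm2, Cdt1, Zmat3 and Gadd45a differed by 0.27, -0.54, 0.34 and -1.36. Each of the calls of Mcm2, Cdt1, Zmat3 and Gadd45a was lost without day 9 replicate 3, with an adjusted p of 0.0874, 0.129, 0.117 and 0.124, and each also without at least 3 other arrays.

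The genes that SPC3372 had changed earlier were chosen on the day 3 arrays, which enter neither mean of the treated comparison but are among the 15 that set its residual variance. At day 3, 816 genes (4.48%) differed between treated and saline mice, 477 higher and 339 lower in treated mice. Of the 477 raised genes, 25 (5.24%) fell between day 9 and day 23 and 0 rose, beside 0.962% lower and 0.594% higher over all genes, and their median difference was -0.09. Of the 339 lowered genes, 14 (4.13%) rose and 4 (1.18%) fell, with a median of 0.03. The count of 25 was between 4, without day 9 replicate 3, and 14, without day 9 replicate 1, when 1 array was left out.

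Rai14, which was 3.90 lower in treated mice at day 3, gave the largest difference of these genes, followed by 4932438A13Rik, Tjp3, Hykk and Slc41a1. Tjp3, a scaffold of tight junctions, was 0.50 lower in treated mice at day 3 and rose from 6.66, 6.84 and 6.86 to 7.44, 7.73 and 7.81 (0.87 ± 0.11, adjusted p = 0.00192). Tjp3 also rose in saline mice, by 0.50 (adjusted p = 0.0146, limma). Hykk, hydroxylysine kinase, was 0.84 higher at day 3 and fell from 10.23, 10.49 and 10.64 to 9.74, 9.74 and 9.33 (-0.85 ± 0.13, adjusted p = 0.00472), as it did in saline mice (-0.92). The other probe sets of Hykk, both dimmer, gave 0.42 and -0.60, neither past the test. Slc41a1, a magnesium transporter, was 0.71 higher at day 3 and fell from 6.46, 6.01 and 6.76 to 5.62, 5.59 and 5.61 (-0.81 ± 0.16, adjusted p = 0.024), with -0.13 in saline mice. Its call was kept only without day 9 replicate 2, and that of 4932438A13Rik (0.88 ± 0.19, adjusted p = 0.0311) was lost without day 23 replicates 1 or 2 or day 9 replicates 2 or 3 (adjusted p = 0.0733 to 0.109). The saline difference of 4932438A13Rik was 0.41. Its other probe sets, all dimmer, gave 0.08, 0.46 and 0.20, and a dimmer probe set of Slc41a1 gave 0.10, none past the test.

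Immune genes were described by 4 lists, beside 1.56% of all genes called and 2756 of 18194 at an unadjusted p under 0.05. Of 29 measured interferon response genes, 0 passed the test (limma) and 3 had an unadjusted p under 0.05, with differences from -0.45 to 0.63 and a median of -0.02. Rsad2, an antiviral enzyme, gave the largest of them, at 7.33, 7.86 and 8.07 and then at 8.18, 8.31 and 8.66 (0.63 ± 0.21, adjusted p = 0.149). Of 18 chemokine genes and 15 complement genes, 0 passed and 0 had an unadjusted p under 0.05. Nlrc5, the activator of MHC class 1 genes, fell (-0.65 ± 0.15, adjusted p = 0.0438) as the only call among 15 genes of antigen presentation, and kept its call only without day 23 replicate 1 (adjusted p up to 0.143). In each of the 11 lists of cell type markers, 0 genes passed, with 0 to 4 genes of a list at an unadjusted p under 0.05. The lymphocyte list had a median difference of 0.03 over 18 genes, 13 of them below the median level of all genes. The neutrophil list had one of -0.09 over 8 genes, 6 of them below that level. The part of these cells in the immune values was not tested.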

How the data were processed

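Total liver RNA was labelled as biotinylated cRNA and hybridised to Affymetrix mouse arrays, per the labels' protocols. The authors deposited 1 log2 value for each probe set and array, made with RMA, per the submitters' processing notes. Which arrays were normalised jointly, and the version of RMA, is not stated in the sources used here. Precision is limited by the number of arrays.

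Of 45101 probe sets, 64 controls were set aside, 34958 had 1 gene symbol, and 932 with several and 9160 with none were not used. The probe set with the highest mean stood for its gene, which gave 18194 genes, and 34754 probe sets were matched by gene identifier to RefSeq of GRCm38.p6. Groups were fitted with limma 3.58.1 (lmFit and eBayes) in R 4.3.3 on the 15 arrays of p0617, with 10 residual degrees of freedom, and Benjamini-Hochberg adjustment over all genes was used with a threshold of 0.05. The change of the drug effect and the plain saline comparison also used p0621, and the saline comparison with a set term kept the mouse as a random block (correlation 0.33). The scripts were tested on simulated data. Figures used matplotlib 3.10.9 in Python 3.11.15.

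The genes named were drawn from the 12 largest increases and decreases past the test without overlap and from up to 4 members of each of 43 lists by moderated t (671 of 727 genes measured). To these were added 14 genes always given, those past the test of the drug effect and the 5 largest among genes called at day 3. Not every list member chosen in this way is described. The comparison and the lists were chosen with earlier results of these data known. Alternatives changed the arrays fitted, the array set of day 23, the normalisation, the filter on dim genes, the choice of probe set, the variance prior, the fold threshold, a replicate block, the actin ratio as a covariate and single arrays left out. The replicate numbers did not pair the mice.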

Additional observations from a re-analysis of the deposited data

Results flagged for a closer look

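Ranbp3l was the 1 gene for which the change from day 9 to day 23 differed between treated and saline mice by the test of that difference (1.21 ± 0.18 on the log2 scale, adjusted p = 0.0496, limma). The test used the p0621 arrays of the treated day 23 mice, with which the treated mice differed by -0.058, beside 0.37 within p0617. The saline mice differed by -1.27 across the 2 array sets. No gene passed this test with only the 12 arrays of the 4 groups in the fit (limma), nor in 8 of the 12 fits that left out 1 of them.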

How the results depend on the processing

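The count of 283 genes was 142 with only the 6 arrays fitted, 558 with the p0621 arrays of the day 23 mice, 469 among genes above the median level, 152 with a change of at least 1.5-fold, 7 with the actin ratio as a covariate and 63 to 204 without 1 array; the cause was not tested. The replicate block gave 245, and 0 for the change of the drug effect; same-numbered deviations correlated at 0.009, 0.056 and 0.079. That change gave 0 with only its 12 arrays and 0 to 4 without 1 array. The saline count of 270 was 74 with no mouse block and 444 with no array set term, the latter chosen after seeing the data. The count of 25 genes raised at day 3 was 4 to 14 without 1 array, the median of the targets -0.14 to -0.032 and that of the core clock -0.41 to -0.25. The sign reversed, past no test, for Cd320 at 0.016 and Gys1 at -0.0050 (mean of probe sets), for Gys1 at -0.0039 (mean of both arrays), for Gys1 at -0.056, Ccng1 at 0.014 and Ranbp3l at -0.058 (p0621) and for Ccng1 at 0.093 (actin covariate). Without 1 array Ccng1 ran from -0.214 to 0.048, Tmed3 from -0.062 to 0.205 and Meg3 from -0.33 to 0.362. The 8 further settings tried for the main count left it within 1.5 times. With 3 mice a group, smaller differences may have gone undetected.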

Other observations

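Tubb2a, Slc45a3 and Cpsf4l belong to no list and were among the largest differences. Tubb2a was at 9.78, 10.42 and 9.79 at day 9 and at 11.28, 11.73 and 11.85 at day 23 in treated mice, with a saline difference of 1.52 on the log2 scale. Dimmer probe sets of Tubb2a and Cpsf4l gave 0.69 and -0.35 in treated mice, neither past the test. Slc45a3, a solute carrier, rose by 1.13 ± 0.16 (adjusted p = 0.00369, limma), with 0.87 in saline mice, and Cpsf4l fell by 1.31 ± 0.18 (adjusted p = 0.00299), with -1.0 in saline mice. The carrier Slc13a2, named after its value was seen, was called at 0.94 (adjusted p = 0.013) with a saline difference of -0.24.

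Other genes were variable within a day. Hsd17b13, a lipid droplet protein, was at 11.56, 7.33 and 11.58 at day 9 and at 7.15, 10.78 and 7.31 at day 23, so that 1 mouse of each day lay near the level of the other day. Rsph4a was at 4.85, 5.62 and 5.07 and then at 7.01, 7.88 and 6.60 (adjusted p = 0.0231), and lost its call without day 23 replicate 2, day 9 replicate 1 or day 9 replicate 3 (adjusted p = 0.0866, 0.0893 and 0.0922). Rgs16 was at 7.82, 7.79 and 8.45 and then at 6.92, 4.79 and 5.24 (adjusted p = 0.044), and kept its call only without day 23 replicate 1, with an adjusted p of up to 0.155 otherwise. Stearoyl-CoA desaturase Scd1 was at 10.99, 13.02 and 9.69 at day 9 and at 12.91, 13.52 and 12.85 at day 23, overlapping.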
